A study of Mus musculus with 16 samples.

Results

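The transcripts described here are those of 38 genes that drive DNA replication, the cyclin cycle and mitosis, measured in the ventricles of mice with adenine-induced chronic kidney disease (CKD) and of controls. They were chosen by a list of symbols, matched to the count table through GENCODE M21. All 38 were found among the 33399 genes of the table. After the filter on low counts 34 of them were among the 16400 genes tested, and Gins2, Bub1, Aurkb and Plk1 were not. The study took ventricular RNA from 16 wild-type C57BL/6 samples, 4 each from male controls, male CKD, female controls and female CKD. CKD was induced from 8 weeks of age by 6 weeks on a diet that switched between plain chow and the same chow containing 0.25% adenine, with a blood urea nitrogen of 40 to 70 mg/dL as the goal. Controls ate the plain chow for the same time. No genetic change or other agent is named for any group. The labels do not say whether each library comes from 1 animal, so p-values measure the spread between these libraries. The number given to a library inside its group is only a name, taken from the sequence of the deposited records.

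Before S phase, ORC, Cdc6 and Cdt1 load the ring of Mcm2 to Mcm7 onto origins, and S-phase kinases then turn that ring into the active helicase. Cyclin E and cyclin A drive S phase, cyclin B with Cdk1 drives entry into mitosis, and the anaphase-promoting complex ends it. Adult cardiomyocytes have largely left the cell cycle, so transcripts of dividing cells in an adult ventricle are scarce and can come from endothelial cells, fibroblasts, immune cells or rare cycling cardiomyocytes. Bulk RNA cannot separate fewer cells of a type from less RNA per cell.

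Library totals lay between 10203707 and 13626039 counts. The 8 cardiomyocyte markers (Myh6, Tnnt2, Ttn and others) summed to between 28558 and 46537 CPM (counts scaled to a library of 1000000) in every library, so the defining markers of the labelled tissue were present in all 16. The sample titles carry a number after the letter C, whose meaning is not given. It is 6 in 10 libraries (5 CKD and 5 control), 2 in 3 libraries (male control 4, female control 4 and female CKD 4), 3 in 2 libraries (male control 3 and male CKD 4) and 5 in 1 library (male CKD 2). It is called the title code number below. Libraries also differed in how log2 CPM deviations followed the GC content of genes, with a Spearman correlation over genes from -0.49 to 0.40 among title code 6 and from 0.02 to 0.54 among the others. Male CKD 4 had the lowest sums of endothelial, fibroblast, pericyte, macrophage and lymphocyte markers of all 16 libraries.

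Certain promoter letters recur in genes of this kind, and 6 upstream stretches are shown because their genes took opposite places in the data below. Mki67, Top2a, Cdk1 and Kif11 varied together over libraries, whereas Mcm6 and Rrm1 did so weakly or not at all. Each line gives the 150 bases before the RefSeq start (GRCm38.p6), 5′ to 3′ on the strand of the gene. Capitals mark TTTGAA and TTCGAA (letterings of the cell cycle homology region), CCAAT (the NF-Y box) and 4 letterings of the E2F site, which are TTCCCGC, further TTGGCGC, then TTCGCGC, and last TTGCCGC, each on either strand. TTCGAA is its own reverse complement, and in Mcm6 the E2F letterings of both strands overlap.
Mki67: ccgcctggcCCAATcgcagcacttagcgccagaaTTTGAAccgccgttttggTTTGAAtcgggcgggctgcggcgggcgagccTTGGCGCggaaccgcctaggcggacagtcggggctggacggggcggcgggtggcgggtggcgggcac
Top2a: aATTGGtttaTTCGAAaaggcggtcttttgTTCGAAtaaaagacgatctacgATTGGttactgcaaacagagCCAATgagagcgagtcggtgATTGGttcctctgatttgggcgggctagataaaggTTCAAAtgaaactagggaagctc
Cdk1: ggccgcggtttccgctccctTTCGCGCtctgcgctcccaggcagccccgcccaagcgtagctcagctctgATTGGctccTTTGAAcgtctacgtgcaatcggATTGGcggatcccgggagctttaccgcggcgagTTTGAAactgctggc
Kif11: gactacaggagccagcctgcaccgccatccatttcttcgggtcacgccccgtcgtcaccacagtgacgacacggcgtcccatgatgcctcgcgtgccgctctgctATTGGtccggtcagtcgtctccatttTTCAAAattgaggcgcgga
Mcm6: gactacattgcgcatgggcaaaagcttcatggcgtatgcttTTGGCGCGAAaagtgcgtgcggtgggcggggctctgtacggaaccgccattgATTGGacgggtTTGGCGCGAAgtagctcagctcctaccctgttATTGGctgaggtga
Rrm1: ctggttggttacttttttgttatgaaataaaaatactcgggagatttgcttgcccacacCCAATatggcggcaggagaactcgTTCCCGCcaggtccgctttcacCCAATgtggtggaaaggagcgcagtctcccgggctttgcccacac
The windows are chr7:135716380-135716529 (minus strand) for Mki67, chr11:99024190-99024339 (minus strand) for Top2a, chr10:69352913-69353062 (minus strand) for Cdk1, chr19:37376232-37376381 (plus strand) for Kif11, chr1:128359706-128359855 (minus strand) for Mcm6, chr7:102441545-102441694 (plus strand) for Rrm1. Top2a held the homology region letters at 140, 120 and 23 bases before the start and 4 CCAAT boxes among them. Mki67 held TTTGAA at 116 and 98 bases and an E2F lettering at 67 bases before the start. In Mcm6 there were 2 E2F stretches, at 109 and 46 bases, and no homology region letters in this window.

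Over all members with a RefSeq promoter in the table used (31 of 38), counted on both strands in the 300 bases from 250 before to 50 after the start, 16 held TTTGAA or TTCGAA, against 21.7% of 27025 genes. These were 14 of the 19 cyclin, kinase, spindle and other mitosis genes and 2 of the 12 replication genes. The E2F letterings were found in 12 of the 31, against 10.9% of all genes, and here the replication genes led with 8 of 12 against 4 of 19. CCAAT was found in 23 of 31, against 41.1% of all genes. The counts depend on the window. In the 250 bases before the start alone, 11 of 31 held TTTGAA or TTCGAA (19.6% of all genes). These were 9 of the 19 cyclin and mitosis genes and 2 of the 12 replication genes. The E2F letterings were then in 9 of 31 (9.01% of all genes), 6 of 12 replication genes and 3 of 19 others. A match is a string of letters, not a measured site. Tpx2, Aurkb, Gins2, Kif20a, Ccne2, Mcm4 and Ccna2 had no entry in the table.

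Levels were low and spread widely between genes. On the RPKM scale (CPM divided by the exon length in kilobases), the median of the 38 members was 0.420 and that of all tested genes 4.08. Pcna, the sliding clamp of the replication fork (chr2:132249162-132253314, minus strand), was highest at 19.3 ± 1.86 RPKM (SD, n = 16 libraries). Cenpa, the histone H3 variant of centromeres, followed at 9.39 ± 1.89, and Cenpf, a kinetochore protein (chr1:189640606-189688086, minus strand), at 5.62 ± 2.51. The helicase subunits Mcm4 and Mcm7 stood at 3.08 ± 0.413 and 3.07 ± 0.478 RPKM and did not differ beyond their spread on this length. Within the Mcm2 to Mcm7 ring, whose 6 subunits assemble together, the highest mean level was 3.29 times the lowest. Only 9 members had a mean of at least 1 RPKM, 23 were under 0.5, and Bub1, a spindle checkpoint kinase, was lowest at 0.109. With the longest transcript in place of all exons as the length, Pcna was at 30.4, Cenpa at 14.5 and Mcm7 at 4.58 RPKM. Mcm4 stayed at 3.08, so Mcm4 and Mcm7 were level only with all exons as the length. On the longest transcript Mcm7 was the highest of the ring and Mcm5 the lowest, at 1.14. Read placement is uncertain for several members by their share of 25-base words that occur in other annotated genes, 37.43% in Mcm7, 34.89% in Cdc20, 29.54% in Ccnb1 and 24.37% in Plk1, and 67.32% of the exon bases of Gins2 overlap Gse1 on the other strand.

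**Figure D1:**
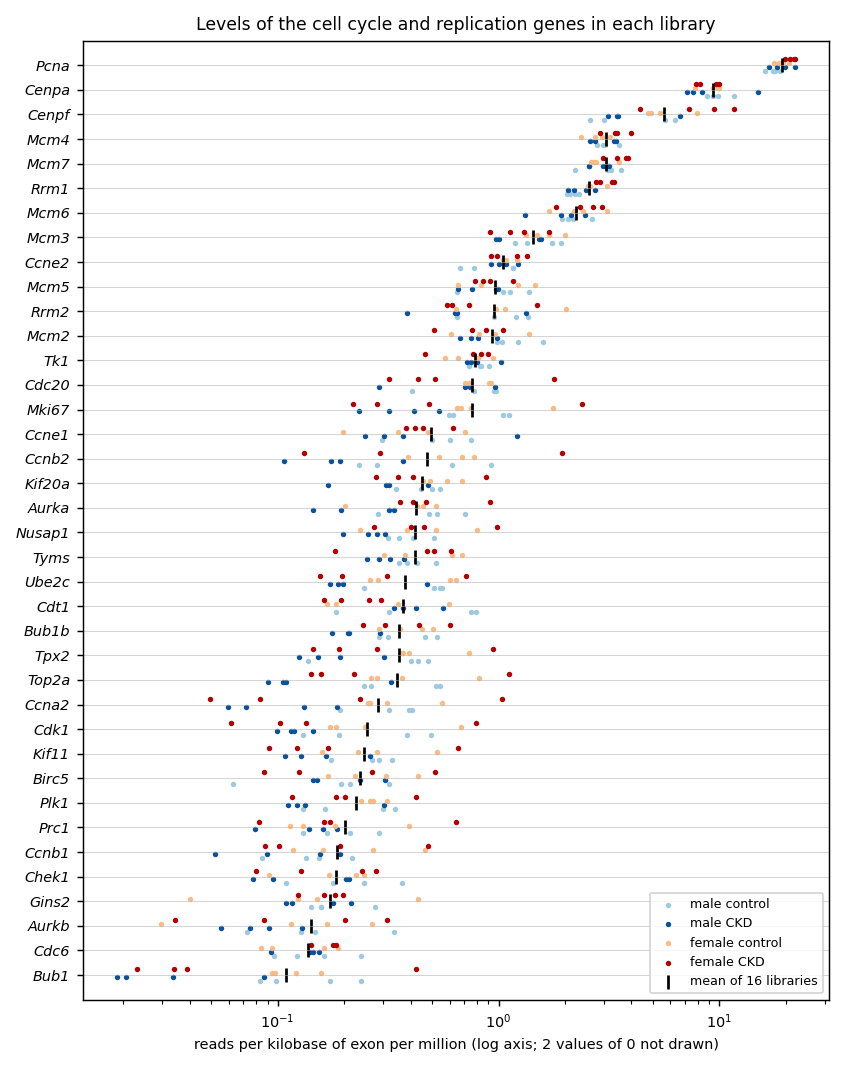
Level of each of the 38 genes in each of the 16 libraries, in RPKM on a log axis, with colours for the 4 groups and black ticks for the mean. Pcna sits at a mean of 19.3 and Bub1 at 0.109, and the spread between libraries is widest among the cyclin and mitosis genes.

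Spread over libraries differed with role. The 14 replication genes had a median coefficient of variation of 24.6%, from 9.65% in Pcna to 54.8% in Cdt1, the licensing factor. Among the 24 cyclin, kinase, spindle and other mitosis genes the median was 51.4%, and it reached 98.0% in Ccnb2 (cyclin B2). Counts behind many members were small: 10 of the 38 had under 10 counts in at least 8 libraries. Of those, 8 were among the 24 cyclin, kinase, spindle and other mitosis genes and 2 among the 14 replication genes. A count of 10 has an exact Poisson 95% interval of 4.80 to 18.4 and a count of 100 one of 81.4 to 122, for counting error only. Cdc6 had 0 counts in female CKD 2, which allows up to 0.303 CPM, and Ccnb2 had 0 in female CKD 1, which allows up to 0.255 CPM.

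In CKD against control, no member passed the threshold. By edgeR's quasi-likelihood test with sex as a covariate and Benjamini-Hochberg adjustment, 0 of 34 members had an adjusted p under 0.05, and 14 of all 16400 genes did (0.0854%). The lowest adjusted p among members was 0.284. At an unadjusted p under 0.05 there was 1 member of 34, Mcm2, lower in CKD, where 15.4% of all genes passed that mark and 7.24% passed it with a lower value. The log2 fold change was below 0 in 26 of 34 members, against 49.8% of all genes, with a median of -0.26 against 0.00 and a range of -0.70 to 0.22. DESeq2 gave 2 members (Mcm2 and Pcna) and limma-voom with sample quality weights 11 members (10 lower) at an unadjusted p under 0.05, and neither called a member after adjustment. Among all genes DESeq2 gave 15.9% and limma-voom 19.3% at that mark, 8.70% lower by limma-voom, and 2.43% and 1.21% after adjustment.

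**Figure D2:**
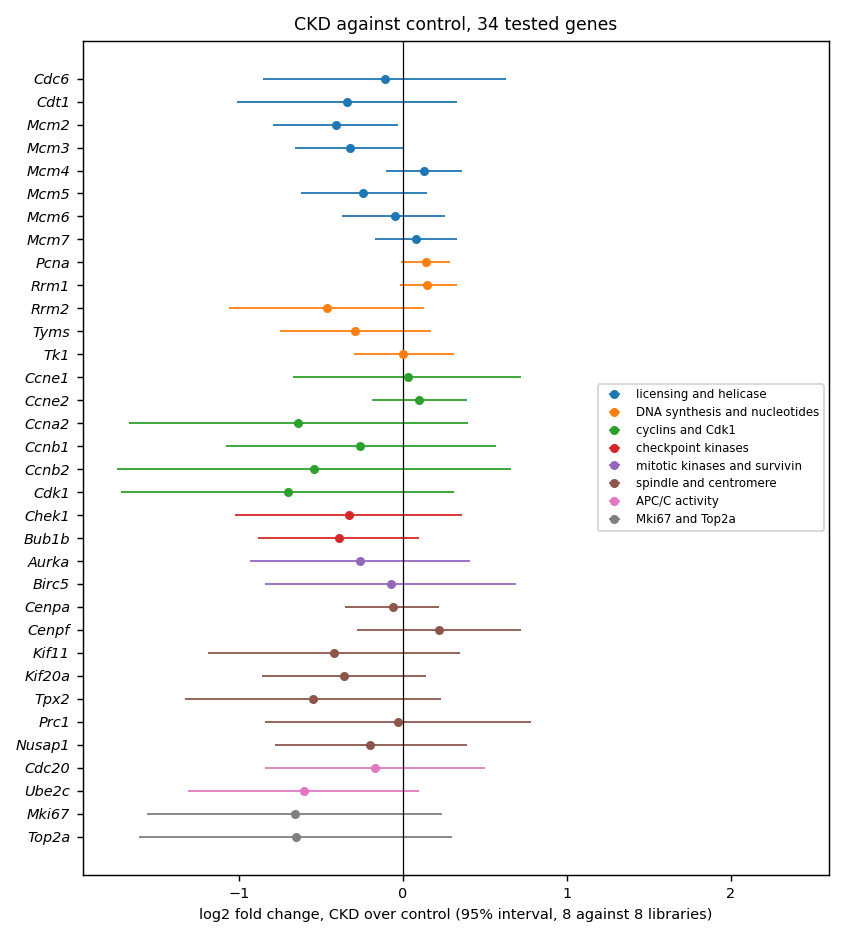
Log2 fold change of CKD over control for the 34 tested genes, by edgeR's quasi-likelihood fit on 8 against 8 libraries, with 95% intervals and colours for the role of each gene. Of the intervals, that of Mcm2 (-0.79 to -0.03) lies wholly on one side of 0, and the intervals of cyclin A2, cyclin B2, Cdk1, Mki67 and Top2a are among the widest.

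Among the licensing and helicase genes 6 of 8 tested members had a fold change below 0. Mcm2, a subunit of the helicase ring, stood at 4.25, 7.03 and 11 CPM (lowest, median and highest) in controls and at 3.53, 5.45 and 7.31 CPM in CKD. The groups overlapped, with 1 of 8 CKD libraries below every control. The means were 7.47 ± 2.16 and 5.57 ± 1.20 CPM (SD, n = 8), a log2 fold change of -0.41 (SE 0.18; edgeR's quasi-likelihood test, Benjamini-Hochberg adjusted p = 0.284). Without male control 3, male control 4, female control 4, male CKD 2, male CKD 3, male CKD 4 or female CKD 2, each in turn, and with GC and length trends removed, Mcm2 had an unadjusted p above 0.05. Mcm3 of the same ring lay at 5.97 ± 1.09 CPM in controls and 4.74 ± 1.12 CPM in CKD, with 4 of 8 CKD libraries below every control (log2 -0.32, SE 0.16; edgeR adjusted p = 0.338). Mcm4 and Mcm7 had fold changes of the other sign, log2 0.13 (SE 0.11) and 0.08 (SE 0.12). Cdt1 had a log2 fold change of -0.34 (SE 0.32), which was 0.34 (SE 0.34) in the libraries with title code 6 alone. Mcm5 had a log2 fold change of -0.24, Cdc6 of -0.11 and Mcm6 of -0.05, and the signs of Cdc6 and Mcm6 turned in some of the other fits.

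The clamp and the large ribonucleotide reductase subunit went the other way, within their spread. Pcna stood at 38.6, 43.9 and 49.4 CPM in controls and at 40.4, 49.0 and 53.1 CPM in CKD. The groups overlapped, with 4 of 8 CKD libraries above every control, and the log2 fold change was 0.14 (SE 0.07; edgeR adjusted p = 0.368). Rrm1, the large subunit of the enzyme that makes deoxyribonucleotides, had means of 26.8 ± 3.70 and 29.9 ± 4.96 CPM (log2 0.15, SE 0.08; edgeR adjusted p = 0.387). Rrm2, the small subunit made in S phase, differed in sign from its partner, with 3.08 ± 1.23 CPM in controls and 2.23 ± 1.09 CPM in CKD (log2 -0.46, SE 0.28; edgeR adjusted p = 0.443). Tyms, thymidylate synthase, was at log2 -0.29 and Tk1, thymidine kinase, at 0.00, with a range of -0.06 to 0.08 over the other fits. Some reads of Pcna cannot be placed with certainty, since 25.08% of its 25-base words occur in other annotated genes, a Pcna pseudogene first among them.

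The division genes showed 1 library against the rest. Mki67, the Ki-67 surface protein of mitotic chromosomes and the usual histological mark of cycling cells (chr7:135689784-135716361, minus strand), had 6.28, 5.99, 11.1 and 10.6 CPM in the male controls and 6.54, 7.53, 6.80 and 17.8 CPM in the female controls. In CKD it had 2.35, 4.16, 3.22 and 5.40 CPM in males and 2.21, 2.83, 4.89 and 24 CPM in females. So 7 of 8 CKD libraries lay below every control and the last, female CKD 4, lay above every control. The log2 fold change was -0.66 (SE 0.43, 95% interval -1.56 to 0.24; edgeR adjusted p = 0.466). Mki67 was the 1 member with at least 7 of 8 CKD libraries below every control, an arrangement that 0.354% of all tested genes had. None had 8 of 8 below (0.0427% of all genes) or at least 7 of 8 or 8 of 8 above (0.756% and 0.159%).

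Top2a, Ccna2, Cdk1, Ccnb2 and Kif11 are named here after their values were seen. Top2a, the topoisomerase that untangles replicated chromosomes (chr11:98992943-99024189, minus strand), had a lowest, median and highest value of 2.21, 2.91 and 7.39 CPM in controls and 0.816, 1.34 and 9.99 CPM in CKD. For Top2a 6 of 8 CKD libraries lay below every control and female CKD 4 above all of them (log2 -0.65, SE 0.45). Ccna2, cyclin A2, had the same 6 of 8 count, with 4.25 CPM in female CKD 4 and at most 0.963 CPM in the other CKD libraries (log2 -0.64, SE 0.49). Cdk1, the kinase of mitotic entry, was at log2 -0.70 (SE 0.48) and Ccnb2 at -0.54 (SE 0.57), each with 5 of 8 CKD libraries below every control. Kif11, the motor that separates spindle poles, was at log2 -0.42 (SE 0.37). Over all 16 libraries, shares of all genes were counted only for at least 7 of 8 CKD libraries. The smaller counts, here and elsewhere, have no such background.

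**Figure D3:**
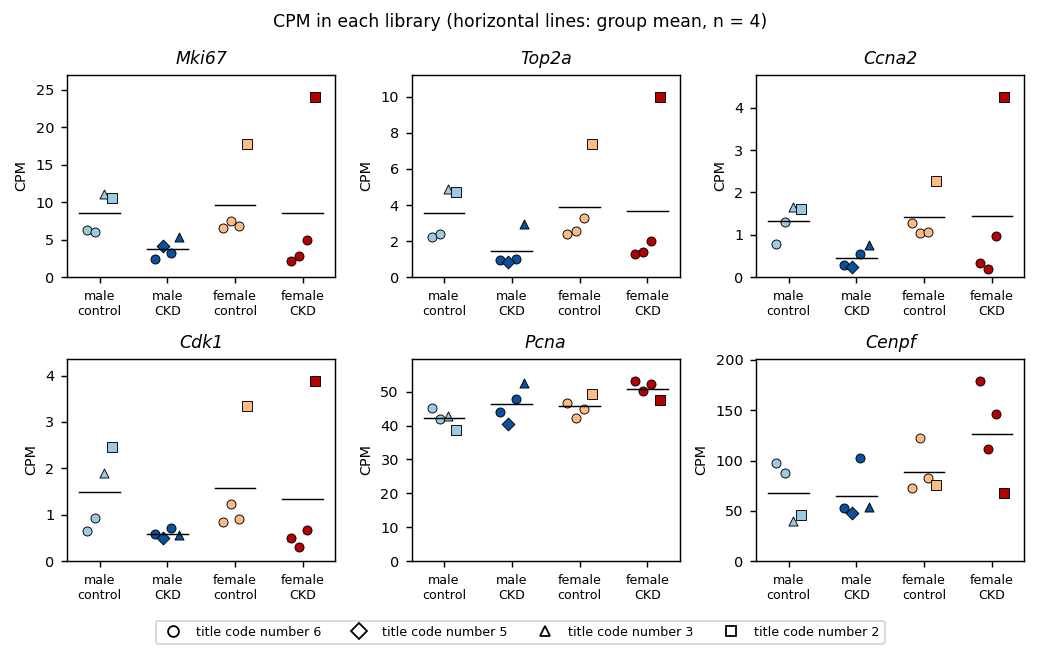
CPM of 6 genes in each library by group, with the group mean as a line and the marker shape showing the title code number. In Mki67, Top2a, Ccna2 and Cdk1 the highest library is female CKD 4 (title code 2, square; Mki67 24 CPM), whereas in Pcna and Cenpf that library lies inside the range of the others.

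Most of the remaining cyclin, kinase and spindle genes also had fold changes below 0. Ube2c, the ubiquitin-conjugating enzyme of the anaphase-promoting complex, had means of 1.19 ± 0.426 CPM in controls and 0.782 ± 0.511 CPM in CKD (log2 -0.60, SE 0.33; edgeR adjusted p = 0.397). Tpx2, which activates Aurora A on the spindle, was at log2 -0.55 (SE 0.37; edgeR adjusted p = 0.485), Bub1b, the checkpoint protein BubR1, at -0.39 (SE 0.23; adjusted p = 0.433) and Kif20a, a motor of cytokinesis, at -0.36 (SE 0.24; adjusted p = 0.478). Aurka, the Aurora A kinase, was at log2 -0.26 (SE 0.32), the replication checkpoint kinase Chek1 at -0.33, cyclin B1 (Ccnb1) at -0.26, the microtubule binder Nusap1 at -0.20, the anaphase activator Cdc20 at -0.17, survivin (Birc5) at -0.07 and Prc1 at -0.03. The G1/S cyclins Ccne1 and Ccne2 were near 0, at log2 0.03 and 0.10. The signs of Ccne1, Birc5 and Prc1 turned in some of the other fits. Cenpa, 56.3 ± 6.60 CPM in controls and 53.8 ± 14.7 CPM in CKD, was at log2 -0.06 (SE 0.13). Cenpf, 78.1 ± 26.5 and 95.3 ± 48.4 CPM, had the largest positive value, log2 0.22 (SE 0.24; edgeR adjusted p = 0.674). The 4 members with too few counts to be tested also overlapped between arms. Bub1, a spindle checkpoint kinase, ranged from 0.361 to 1.04 CPM in controls and from 0.0816 to 1.85 CPM in CKD, with 6 of 8 CKD libraries below every control and female CKD 4 above all. The polo-like kinase Plk1 from 0.285 to 0.748 and from 0.245 to 0.925, Aurora B (Aurkb) from 0.0876 to 0.997 and from 0.101 to 0.925, and Gins2, a subunit of the GINS complex of the helicase, from 0.164 to 1.77 and from 0.447 to 0.879. Without strand information, reads of Ube2c (22.77% of exon bases overlap Tnnc2, a troponin gene on the other strand) and Kif20a (29.3% overlap Cdc23) may include reads of those neighbours.

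The fold changes of most members were farther from 0 without female CKD 4. It was the highest of all 16 libraries in 19 of 38 members, 18 of them among the 24 cyclin, kinase, spindle and other mitosis genes and 1 among the 14 replication genes. How often this library was the highest over all genes was not counted, so the count cannot be called particular to the members. Without it 13 of 35 tested members had an unadjusted p under 0.05, all lower in CKD, where 17.8% of all genes passed that mark and 9.17% were lower. Mki67 then had a log2 fold change of -1.33 (SE 0.27; edgeR adjusted p = 0.0506), Ccna2 of -1.47 (SE 0.33; adjusted p = 0.0535), Top2a of -1.31 (SE 0.33; adjusted p = 0.0723) and Cdk1 of -1.42 (SE 0.37; adjusted p = 0.0829). No member passed the adjusted threshold in that fit either, in which 0.259% of all genes did. Pcna and Rrm1 were at log2 0.15 and 0.17. Female CKD 4 was singled out because its values were high in these members. Leaving out the highest CKD library lowers the CKD mean by construction, so this fit is no separate evidence of lower values. The same holds for the fits below that leave it out. Leaving out any other library gave 0 to 4 members at the unadjusted mark, which 11.2% to 17.8% of all genes passed in those 15 fits.

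Title code number went with the level of the same genes. In the 10 libraries with title code 6, Mki67 had 5.99 to 7.53 CPM in 5 controls and 2.21 to 4.89 CPM in 5 CKD libraries, with no overlap. With title code 2 the 2 controls had 10.6 and 17.8 CPM and the CKD library 24 CPM. With title code 3 the control had 11.1 CPM and the CKD library 5.40 CPM. Within title code 6, all 5 CKD libraries lay below every control in Mki67, Top2a and Kif20a (3 of 34 members), as they did in 1.32% of all genes, and in no member did all 5 lie above (1.72% of all genes). A fit on title code 6 alone gave 11 of 32 members at an unadjusted p under 0.05, all lower in CKD (6.42% of all genes were lower, and 0.0482% passed after adjustment), among them Mki67 at log2 -1.10 (SE 0.20; edgeR adjusted p = 0.0907), Top2a at -0.96 (SE 0.19; adjusted p = 0.104) and Kif11 at -0.87 (SE 0.25; adjusted p = 0.212). Leaving out the 3 libraries with title code 2 gave 10 of 33, all lower (11.9% of all genes, 6.92% lower, 0.0303% after adjustment). This fit and the fit on title code 6 alone both lack female CKD 4, so they are not separate from the fit without that library. With the title code number as a factor in the fit of all 16 libraries there were 4 of 34, Mki67, Top2a and Rrm2 lower and Pcna higher, where 20.2% of all genes passed that mark (8.31% lower and 11.9% higher). After adjustment 0 members passed in that fit and 1.43% of all genes did. The part of the title code number in the values over all libraries was not tested.

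Markers of interstitial and blood cells also differed in range between arms. Summed fibroblast markers (Col1a1, Pdgfra, Dcn and others) were 1827 to 2459 CPM in controls and 536 to 2281 CPM in CKD. Of the 10 genes 4 were lower at an unadjusted p under 0.05, and all 10 had a fold change below 0. Among all tested genes 7.24% were lower and 8.12% higher at that mark, and 49.8% had a fold change below 0. Endothelial markers summed to 964 to 1265 CPM in controls and 463 to 1175 CPM in CKD (2 of 10 lower), macrophage markers to 333 to 460 and 200 to 425 CPM (2 of 12 lower), and lymphocyte markers to 29.0 to 59.3 and 19.2 to 37.2 CPM (3 of 9 tested lower). The lowest CKD sum of each of these lists, fibroblast markers included, was that of male CKD 4. Medians in controls and CKD were 2021 and 1710 CPM (fibroblast), 1104 and 950 (endothelial), 377 and 367 (macrophage) and 39.2 and 30.4 (lymphocyte). Pericyte and smooth muscle markers had 2 of 10 lower, cardiomyocyte markers 2 of 8 higher, and neutrophil, Schwann cell and erythroid markers 0 of 3, 5 and 6 tested. No listed gene was at 0 in all libraries, and no gene of these 9 lists passed the adjusted threshold by edgeR. Erythroid markers summed to 1459 to 3404 CPM in controls and 489 to 3903 CPM in CKD, and female CKD 4 was the highest of the 16 libraries. Their part in the values of the division genes was not tested.

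Members of the mitotic set varied together from library to library. Over the 16 libraries the Spearman correlation with Mki67 on log2 CPM was at least 0.5 in 23 of the 37 other members (62.2%), against 7.55% of all tested genes. It was 0.94 for Ccnb2, 0.92 for Top2a, 0.91 for Ccna2, 0.90 for Bub1, 0.89 for Cdk1, 0.87 for Kif11 and 0.85 for Tpx2. The median was 0.73 among the cyclins and Cdk1, 0.30 among the licensing and helicase genes and 0.26 among the DNA synthesis genes. Mcm4 (-0.44), Cenpf (-0.39), Pcna (-0.33), Rrm1 (-0.24) and Ccne2 (-0.19) had negative values, and Cenpa was at 0.12. Libraries share depth, composition, arm and title code number, and these correlations are a description without a test.

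Within the 10 libraries of title code 6 the set that followed Mki67 was smaller. Mki67 did not overlap between arms there (5.99 to 7.53 CPM in controls, 2.21 to 4.89 CPM in CKD). Correlations with it in these libraries are therefore not separate from the CKD contrast. There 12 of 37 members reached 0.5 (32.4%), against 10.2% of all tested genes. Top2a and Ccnb2 were at 0.92, Kif20a at 0.84, Cdk1 and Kif11 at 0.82 and Ccna2 at 0.76. The helicase subunits that reached 0.5 over all libraries did not: Mcm2 went from 0.61 to 0.08, Mcm3 from 0.67 to 0.26 and Mcm5 from 0.59 to 0.02. Prc1, which bundles microtubules between the separating chromosomes, went from 0.60 to 0.09.

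**Figure D4:**
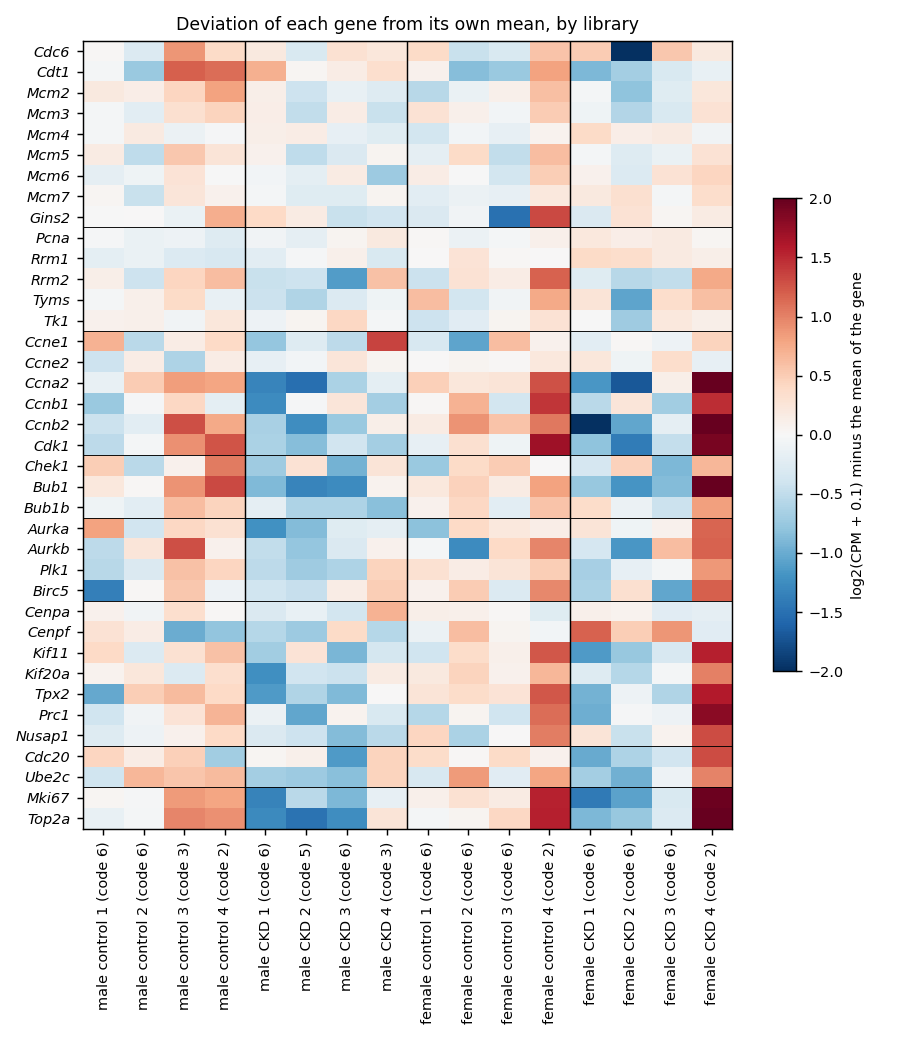
Deviation of log2(CPM + 0.1) from the mean of each gene, for 38 genes in rows (ordered by role) and 16 libraries in columns (by group, with the title code number). Female CKD 4 is high across most cyclin and mitosis rows and near the mean in Pcna, Cenpa and Mcm4, and female control 4 has the highest value in 6 of the 14 replication rows.

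Cenpf and Rrm1 varied with the GC trend of the libraries. Across libraries the Spearman correlation of log2 CPM with that trend was -0.81 for Cenpf and -0.86 for Rrm1, and 0.31 for Mki67. Cenpf had 73.1 to 122 CPM in the 5 controls with title code 6 and 40.0 to 76.0 CPM in the 3 other controls, a range that overlapped only through female control 4. The trend itself ran from -0.49 to 0.14 in female and from 0.01 to 0.54 in male libraries. Cdt1 had a correlation with the trend of the other sign, 0.77. GC content was 43.3% in Cenpf and Rrm1 and 57.8% in Cdt1. The trend was computed from the values of all tested genes, these among them. Genes of low or high GC content therefore tend to follow it by construction. The share of all genes that followed it this closely was not counted.

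By sex, the CKD contrasts gave 0 members past the adjusted threshold. In males 30 of 34 fold changes were below 0, against 48.6% of all genes, with a median of -0.38, and 4 members were lower at an unadjusted p under 0.05, where 2.95% of all genes were lower and 6.88% passed in either direction (0.00% after adjustment). They were Bub1b (log2 -0.81, SE 0.32; edgeR adjusted p = 0.657), Aurka (-1.03, SE 0.41; adjusted p = 0.657), Mcm2 (-0.58, SE 0.25; adjusted p = 0.722) and Ccna2 (-1.55, SE 0.73; adjusted p = 0.722). Aurka had 1.78, 0.721, 1.33 and 1.23 CPM in male controls and 0.366, 0.489, 0.804 and 0.853 CPM in male CKD, overlapping through male control 2. Without male control 3, male control 4 or male CKD 2, each in turn, 1 of these 4 genes kept an unadjusted p under 0.05, and 2 did without male CKD 1, male CKD 3 or male CKD 4. DESeq2 put 6 members at that mark in males and limma-voom 10, all lower (2.87% and 3.79% of all genes were), and neither called one after adjustment. Without female CKD 4, which enters the shared estimate of spread, 9 members were lower at that mark (3.28% of all genes were).

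In females 21 of 34 fold changes were below 0, against 50.7% of all genes, with a median of -0.06, and 0 members had an unadjusted p under 0.05, against 8.34% of all genes (0.0549% after adjustment). DESeq2 also gave 0 (8.53% of all genes), whereas limma-voom with sample quality weights gave 7 members, 4 lower and 3 higher, against 9.07% of all genes lower and 9.74% higher. With GC and length trends removed Mcm7 was the 1 member at that mark, higher at log2 0.40 (SE 0.14; edgeR adjusted p = 0.426), where 5.20% of all genes were higher. The 2 lowest p values were those of Mcm4 (log2 0.28, SE 0.15; edgeR adjusted p = 0.640) and Mcm7 (0.27, SE 0.16; adjusted p = 0.679), both higher in CKD. Without female CKD 4 there were 12 of 35 members, 10 lower and 2 higher, against 6.32% of all genes lower and 4.72% higher (0.0482% after adjustment). Mki67 was then at log2 -1.53 (SE 0.42; edgeR adjusted p = 0.273) and Top2a at -1.29 (SE 0.50; adjusted p = 0.388), beside -1.17 (SE 0.61) and -1.33 (SE 0.65) in males with all libraries, while Mcm4 (0.36, SE 0.16) and Cenpf (0.72, SE 0.32) were the 2 that were higher.

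**Figure D5:**
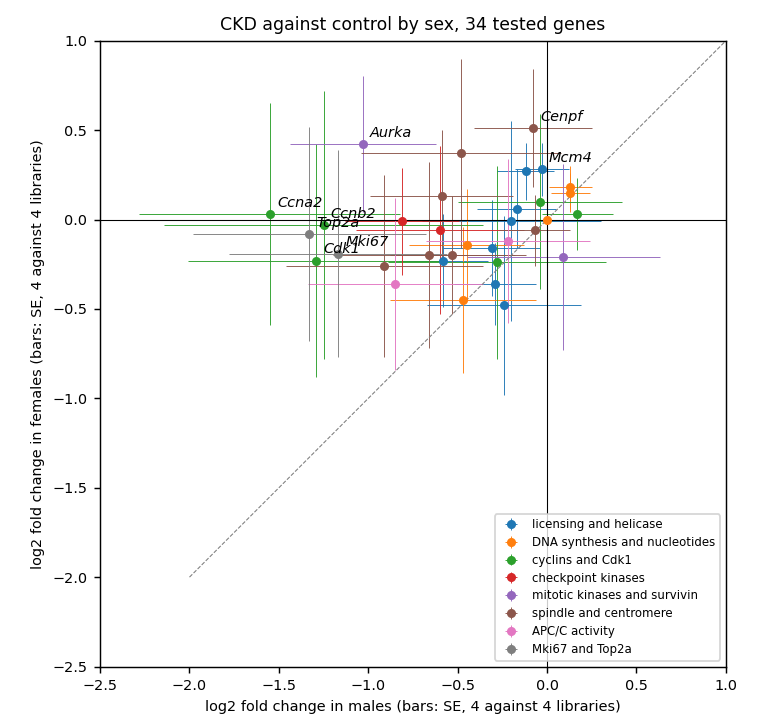
Log2 fold change of CKD over control in males (horizontal) and females (vertical) for the 34 tested genes, with standard errors as bars, colours for the role and a dashed line of equality. Most cyclin and mitosis genes lie above the line, for example Ccna2 at -1.55 in males and 0.03 in females, with all 4 female CKD libraries included.

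The difference of the CKD effect between the sexes, female minus male, was below 0 in 4 of 34 members, against 54.0% of all genes. Aurka was the 1 member with an unadjusted p under 0.05 (1.68% of all genes), at log2 1.45 (SE 0.56), and Bub1b was next at 0.80 (SE 0.44). No gene passed the adjusted threshold (0.00%). For Mki67 the difference was 0.98 (SE 0.84, 95% interval -0.80 to 2.75). Without female CKD 4 it was -0.36 (SE 0.55) for Mki67 and 1.08 (SE 0.53) for Aurka, and 17 of 35 members were below 0, against 56.1% of all genes.

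No sex difference of a member within an arm passed the adjusted threshold. In controls Rrm1 was the 1 member with an unadjusted p under 0.05 (6.84% of all genes, 0.0366% after adjustment), higher in females at log2 0.31 (SE 0.12; edgeR adjusted p = 0.639), and Cdt1 came next at -0.65 (SE 0.45). Rrm1 had 24.5, 25.5, 23.2 and 22.5 CPM in male controls and 28.0, 34.0, 28.6 and 28.0 CPM in female controls, without overlap. It was the 1 member of 34 in which all 4 female controls lay above every male control, as they did in 1.90% of all genes. In CKD 6 members were higher in females at an unadjusted p under 0.05 (4.73% of all genes were higher, and 0.0427% passed after adjustment). They were Rrm1 (log2 0.36, SE 0.12; edgeR adjusted p = 0.255), Cenpf (0.97, SE 0.34; adjusted p = 0.256), Aurka, Nusap1, Bub1b and Ccna2. Without female CKD 4 Cenpf and Rrm1 were the 2 that remained at that mark (4.78% of all genes were higher), and without female CKD 1 or female CKD 2 there were 11 and 10 members, all higher in females (2.92% and 3.05% of all genes were). With GC and length trends removed Rrm1 was at log2 0.25 (adjusted p = 0.416) and Cenpf at 0.84 (adjusted p = 0.344) in CKD, and in controls no member had an unadjusted p under 0.05. In CKD 27 of 34 members were above 0, with a median of 0.34 (all genes -0.01), which was 0.01 without female CKD 4. DESeq2 gave 8 members and limma-voom 7 at the unadjusted mark, all higher in females. Of 16400 genes 2608 and 5184 passed it in either direction. The share of all genes higher at that mark is not given for these 2 fits, so the member counts have no like background. After adjustment 59 and 1554 genes passed, 12 and 389 of them higher in females. Rrm1 had the lowest adjusted p of a member, 0.0513 by limma-voom.

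Promoter letters and the readouts were set side by side without a test. Mki67 was left out of these medians, since the correlations are with it. The 13 other tested members with TTTGAA or TTCGAA had a median correlation with Mki67 of 0.61 and a median CKD log2 fold change of -0.39, and the 15 without had 0.47 and -0.20. For the E2F letterings the medians were 0.47 and -0.26 in 11 members with them and 0.60 and -0.20 in 17 without. Mki67, Top2a, Cdk1 and Kif11, printed above, all hold the homology region letters, but they were printed because of their places in these data. Their match is therefore no evidence of a link. Cenpf (correlation -0.39, CKD log2 fold change 0.22), Mcm7 (0.30 and 0.08) and Cenpa (0.12 and -0.06) also hold the letters and did not vary with Mki67 in that way. Rrm2 (0.79 and -0.46) and Mcm3 (0.67 and -0.32) varied with Mki67 without these letters.

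Regulators of the members and related genes were followed in 7 further lists, in none of which a gene passed the adjusted threshold by edgeR. Ccnd1, Tfdp2 and Mycn passed it by DESeq2, and Ccnd1 and Tfdp2 by limma-voom. Of all tested genes 2.43% passed by DESeq2 and 1.21% by limma-voom. Of the G1 cyclins and kinases all 10 tested of 11 had fold changes below 0, and 2 were lower at an unadjusted p under 0.05 (7.24% of all genes were). Ccnd1, the growth-factor-responsive cyclin D1, had 26.0, 41.8 and 53.9 CPM in controls and 18.9, 23.0 and 36.2 CPM in CKD. For Ccnd1 6 of 8 CKD libraries lay below every control (log2 -0.69, SE 0.17; edgeR adjusted p = 0.0952), and DESeq2 and limma-voom put its adjusted p at 0.0172 and 0.0472. Ccnd3 was the other, at log2 -0.35, and Cdc25a, the phosphatase that activates Cdk2, was at -0.25. Of 7 CDK inhibitors 5 were tested. Cdkn2c, which encodes p18, was the 1 higher at that mark (8.12% of all genes were), at log2 0.31 (edgeR adjusted p = 0.229), and Cdkn1a, which encodes p21, was at 0.21 (adjusted p = 0.778). The sign of Cdkn1a turned with title code 6 alone (log2 -0.39) and with the title code number as a factor (log2 -0.04). Cdkn2d was at log2 0.16 and Cdkn1c, which encodes p57, at -0.27.

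Among 18 tested of 20 RB, E2F and DREAM genes 3 were higher and 2 lower at an unadjusted p under 0.05. Over all tested genes 8.12% were higher and 7.24% lower at that mark. Tfdp2, a dimer partner of E2F proteins, had means of 126 ± 35.7 CPM in controls and 201 ± 44.1 CPM in CKD, with 5 of 8 CKD libraries above every control (log2 0.67; edgeR adjusted p = 0.108, DESeq2 adjusted p = 0.0246, limma-voom adjusted p = 0.0451). E2f4, the repressor E2F of resting cells, was at log2 -0.28 (edgeR adjusted p = 0.154) and Lin9 of the DREAM core at 0.35. The activators E2f1 (log2 -0.62, adjusted p = 0.382) and Foxm1 (-0.52, adjusted p = 0.557) were in the same direction as most of the division genes.

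Of other replication genes 33 of 40 were tested, with 3 higher and 2 lower at an unadjusted p under 0.05 and a median log2 fold change of 0.05. The shares of all tested genes at that mark were 8.12% higher and 7.24% lower. Uhrf1, which reads hemimethylated DNA behind the fork, was at log2 -0.81, Tipin of the fork protection complex at 0.30 and Pole, the leading-strand polymerase, at 0.40. Of other mitosis genes 27 of 40 were tested, with a median log2 fold change of -0.24. Among them 22 had a fold change below 0 (49.8% of all genes did) and 4 were lower at that mark (7.24% of all genes were). Hmmr was at log2 -1.07, the chromokinesin Kif4 at -0.93 and Incenp, the scaffold of Aurora B, at -0.44. In Hmmr and Kif4, as in Top2a, 6 of 8 CKD libraries lay below every control, and female CKD 4 had the highest CKD value in both. How many of all genes had that 6 of 8 count was not determined.

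Of 15 tested p53 targets 2 were higher at an unadjusted p under 0.05, Trp53inp1 (log2 0.38) and Sesn1 (0.27), and Bax, the apoptosis effector, was at -0.28. Of 16 regulators of cardiomyocyte cycling 3 were lower at that mark. Here too 8.12% of all tested genes were higher and 7.24% lower. Mycn, the N-Myc factor of embryonic myocardium, had means of 2.68 ± 2.04 CPM in controls and 0.692 ± 0.340 CPM in CKD (log2 -1.90, SE 0.39; edgeR adjusted p = 0.0813, DESeq2 adjusted p = 0.00121, limma-voom adjusted p = 0.0659), with 4 of 8 CKD libraries below every control. The Hippo pathway effectors Wwtr1 and Yap1 were at log2 -0.24 and -0.19.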

How the data were processed

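Ventricular RNA of 16 mouse samples was sequenced as 50 bp paired-end reads. The authors deposited raw counts per gene in 1 comma-separated table, with quality control by FastQC and MultiQC, STAR 2.6.1d, featureCounts of Subread 1.6.3 and DESeq2 1.30.1 on mm10 named in the submitters' processing notes. Not given in the sources used here are the annotation, whether counting used strand, and what was done with multi-mapped reads. Gene IDs were matched to GENCODE M21 (33367 of 33399 matched without the version), which gave symbols, positions, exon lengths and overlaps.

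Genes were kept by edgeR's filterByExpr (minimum count 10, total 15) on the 4 groups, after which 16400 genes remained, holding 99.8% or more of each library's counts. Tests were edgeR 4.0.16 quasi-likelihood F tests, two-sided, with TMM scaling and Benjamini-Hochberg adjustment over all tested genes at 0.05. CKD against control had sex as a covariate, and the other contrasts came from a model of the 4 groups. CPM used TMM-scaled library sizes, and RPKM divided by the union of exons. The correlations used log2 CPM with a prior count of 0.5. The procedure was tested on simulated counts with known fold changes.

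The members and all lists (7 of regulators and related genes, 9 of cell type markers) were chosen with earlier results of these data known. By the rule for named genes, values over libraries are given for the 10 members with the lowest p in CKD against control, the 5 of highest RPKM, the 2 of lowest p in each other contrast, and up to 3 genes of each further list, plus Cdkn1a, Ccnd1, E2f1 and Foxm1. The fold changes and values of the other members were added outside that rule, after their values were seen. Alternatives were DESeq2 1.42.0, limma 3.58.1 (voom with sample quality weights), other scalings and filters, the title code number as a factor or at 6 alone, GC and length trends removed with a lowess span of 0.3, and each library left out. The fits without title code 2, the counts at an unadjusted p and of groups without overlap, and the GC fits of the other contrasts were added after seeing the data.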

Additional observations from a re-analysis of the deposited data

Results flagged for a closer look

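Within groups of 4, 17 of 96 sets of CPM values had 1 library far from the other 3, and chance gives about 1 in 20. Female CKD 4 stood high in Mki67 (24, others 2.21 to 4.89 CPM), Tpx2 (4.44, others 0.679 to 1.31), Rrm2 (4.16, others 1.62 to 2.04), and in the summed CPM of Mki67 with Top2a (33.9, others 3.48 to 6.89), of the 4 mitotic kinase genes (5.92, others 2.12 to 2.37) and of Cdc20 with Ube2c (5.18, others 1.10 to 1.78). Female control 4 stood high in Mki67 (17.8, others 6.54 to 7.53 CPM), Tpx2 (3.45, others 1.70 to 1.84), Mcm7 (15.6, others 11.6 to 12.3), and in the sums of Mki67 with Top2a (25.2, others 8.92 to 10.1) and of the cyclins with Cdk1 (14.3, others 7.99 to 8.85). Both of these libraries carry title code 2.

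Female control 2 was high in Rrm1 (34.0, others 28.0 to 28.6 CPM) and in the sum of the spindle and centromere genes (189, others 138 to 146). Male CKD 4 was high in Cenpa (87.4, others 41.8 to 48.6 CPM) and Ube2c (1.23, others 0.447 to 0.513). Male CKD 3 was high in Cenpf (103, others 48.1 to 53.6 CPM), and male control 1 was low in Ube2c (0.642, others 1.33 to 1.44 CPM). Sets that share a gene or a library are not independent.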

How the results depend on the processing

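No member passed the adjusted threshold in any comparison under any alternative that was run, and in CKD against control 27 of 34 tested members kept their sign in each that tested them. The sign turned in Cdt1 (log2 0.34 with title code 6 alone) and in 6 members between -0.11 and 0.03, which ranged from -0.34 to 0.26 (Cdc6), -0.14 to 0.14 (Mcm6), -0.06 to 0.08 (Tk1), -0.47 to 0.15 (Ccne1), -0.34 to 0.09 (Birc5) and -0.51 to 0.20 (Prc1). Of 1343 alternative values for 50 named gene results, 1327 kept their direction and their side of the threshold, 12 passed it and 4 turned sign. Among these named results, besides Cdt1, the sign turned in Cdkn1a, at -0.04 with the title code number as a factor, -0.39 with title code 6 alone and between -0.08 (without male CKD 2) and 0.41 with single libraries left out. The cause was not tested. Those that passed were Ccnd1, Tfdp2 and Mycn.

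The number of all genes past the threshold, 14, became 398 with DESeq2, 199 with limma-voom, 53 without a filter, 234 with the title code number as a factor, 8 with title code 6 alone, 22 without male CKD 4 and female control 2, 5 without the 3 libraries of title code 2, 27 with GC and length trends removed and 6 to 43 with single libraries left out. The cause was not tested. Mean RPKM by the longest transcript was 30.4 for Pcna, 14.5 for Cenpa and 4.58 for Mcm7, since that length is shorter. No paired analysis was possible because the labels give no replicate numbers and the numbers used here follow record order. Most mitosis genes rest on 10 to 30 counts or fewer a library (30 counts have a 95% Poisson interval of 20.2 to 42.8), so small differences in them could be missed. Libraries also differed beyond counting error. Top2a, for example, ran from 10 to 108 counts with a median of 30. How far depth or spread between libraries limited the calls was not tested.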
